A study of Homo sapiens with 10 samples.

Results

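The genes ADM, ANGPTL4, PFKFB3, ALDOC and BNIP3, which cells are known to raise when oxygen is short or when they rely on glycolysis, were followed across 3 subsets of a breast cancer cell line. They were chosen by name, with earlier results of these data known, as all probe sets of the deposited table that the array's annotation pairs with 1 of these symbols. That gave 6 probe sets for 5 genes, of 12083 genes with a single symbol in the table. All 6 probe sets reached the median of each of the 10 arrays, so that all 5 genes were among the 7639 genes tested. The cells were MDA-MB-231, a basal-like human breast cancer line from a metastatic site, stably transfected with pEGFP1-Oct3/4, a plasmid in which the Oct4A promoter drives GFP, and selected with neomycin. Breast cancer cells (BCCs) were sorted by GFP into Oct4hi (the top 5% of the cells, 4 arrays), Oct4med (the cells between both ends, 2 arrays) and Oct4low BCCs (the lowest 5%, 4 arrays). These are the gates of the sample labels and the methods of the study. Its results give a wider one for Oct4low BCCs, and for Oct4med BCCs a gate that holds only a part of the cells between both ends. All 3 subsets carried the plasmid and had been through the same selection and sort, and no untransfected cells were part of the comparison. GFP stands for the activity of the plasmid's promoter, the transcript of Oct4 itself is not analysed here, and whether the transfected cells were 1 clone or a pool is not given in the sources used here.

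Cells sense oxygen through the hypoxia-inducible factors (HIFs). While oxygen is present, prolyl hydroxylases of the EGLN family mark the HIF alpha subunit for destruction. When oxygen falls, the alpha subunit pairs with ARNT and binds short hypoxia response elements near its target genes, which shift the cell to glycolysis, clear mitochondria and send out signals to blood vessels. ADM encodes adrenomedullin, a secreted peptide that widens and stabilises vessels. ANGPTL4 encodes a secreted inhibitor of lipoprotein lipase. PFKFB3 makes the sugar bisphosphate that activates phosphofructokinase, and ALDOC is an aldolase of glycolysis. BNIP3 is a receptor on the outer mitochondrial membrane that leads mitochondria into autophagy.

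The core of the hypoxia response element is ACGTG or GCGTG, and the promoters of the 5 genes were read for it because they are known HIF targets. The sequences run from 250 bases before to 50 bases after the start of transcription in RefSeq (GRCh38.p14, 1 start for each gene), which need not be the start used in these cells. They are printed 5′ to 3′ on the strand of the gene, in lower case with matches on either strand in capitals. CACGTG counts once on each strand. ALDOC and BNIP3, which held several matches, are shown whole, at chr17:28576846-28577145 on the minus strand and chr10:131981874-131982173 on the minus strand.
ALDOC: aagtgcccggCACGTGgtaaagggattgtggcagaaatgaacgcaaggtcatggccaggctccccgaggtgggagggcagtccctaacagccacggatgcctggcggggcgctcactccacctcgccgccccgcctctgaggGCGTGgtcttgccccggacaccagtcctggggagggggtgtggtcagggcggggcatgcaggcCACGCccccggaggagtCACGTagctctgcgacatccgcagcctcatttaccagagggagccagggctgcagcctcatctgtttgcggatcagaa
BNIP3: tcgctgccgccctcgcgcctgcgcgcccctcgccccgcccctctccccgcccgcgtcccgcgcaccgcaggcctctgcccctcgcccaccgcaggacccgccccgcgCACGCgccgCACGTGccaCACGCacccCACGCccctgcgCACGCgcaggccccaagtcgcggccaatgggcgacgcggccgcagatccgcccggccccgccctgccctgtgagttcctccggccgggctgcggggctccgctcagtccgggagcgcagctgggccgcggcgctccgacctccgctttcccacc
ADM, ANGPTL4 and PFKFB3 held 1 match each, and the stretch of up to 30 bases on either side of it is shown, at chr11:10304942-10305006, chr19:8363905-8363955 and chr10:6144723-6144787, all on the plus strand.
ADM: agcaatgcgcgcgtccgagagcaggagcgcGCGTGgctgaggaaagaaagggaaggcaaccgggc
ANGPTL4: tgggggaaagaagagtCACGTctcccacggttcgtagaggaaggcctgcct
PFKFB3: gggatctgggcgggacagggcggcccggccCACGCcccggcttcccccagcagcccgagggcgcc

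BNIP3 held 6 matches, all within positions -143 to -100 with the start base as 0, and ALDOC held 5, within positions -240 to -24. The match lay at -101 to -97 in ADM, -234 to -230 in ANGPTL4 and -168 to -164 in PFKFB3. Of 27305 promoters of the same length in the RefSeq table, 48.4% held at least 1 match, 2.0% at least 5 and 0.93% at least 6. A single match was therefore common. GC content was 80.7% for BNIP3, 78.3% for PFKFB3, 66.3% for ANGPTL4, 66.0% for ALDOC and 65.0% for ADM, above the median of 58.3% over all promoters. The match is a description of letters, and the arrays did not measure binding.

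**Figure D1:**
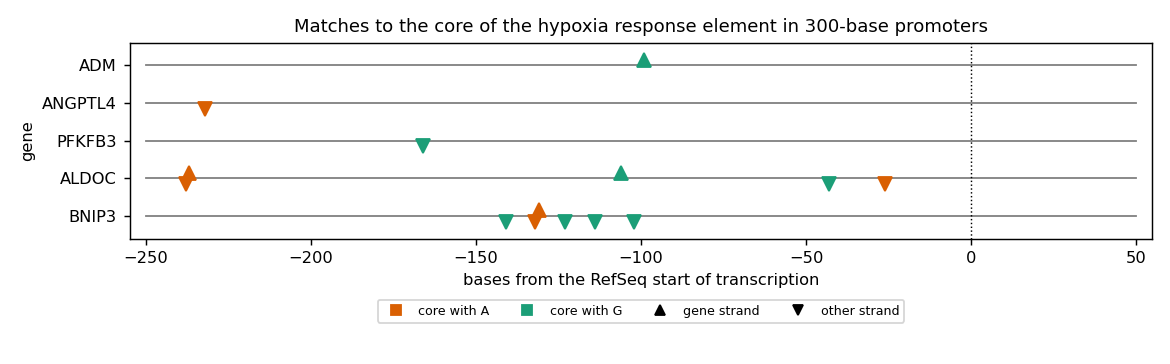
Matches to the core of the hypoxia response element (triangles, colour by core, pointing up for the strand of the gene and down for the other strand) by distance in bases from the RefSeq start of transcription (x axis), for each of the 5 genes (y axis). BNIP3 carries 6 matches and ALDOC 5, and the other 3 genes carry 1 each.

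Values are the deposited RMA log2 intensities, so that a difference of 1 is a 2-fold change, and a level can be compared between subsets for 1 probe set but not between probe sets. Array medians lay between 5.05 and 5.14. Replicates of a subset correlated at 0.987 to 0.994 across tested probe sets and arrays of different subsets at 0.957 to 0.981, with a median SD of 0.12 for each subset. A limma model with 1 mean for each subset gave all changes, and the two-sided p-values were adjusted over all tested probe sets (Benjamini-Hochberg) and called below 0.05. The labels call the arrays biological replicates, and the p-values measure the spread between them. In a bulk sample, more cells that express a gene and more RNA for each cell cannot be told apart.

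ADM had its highest level in Oct4hi BCCs and its lowest in Oct4med BCCs, with Oct4low BCCs between. The log2 intensity was 11.54, 11.52, 11.55 and 11.48 in Oct4hi BCCs, 10.45 and 10.36 in Oct4med BCCs, and 11.21, 11.11, 11.20 and 11.11 in Oct4low BCCs. No array of one subset overlapped with another subset. The means were 11.52 ± 0.03 in Oct4hi BCCs (SD, n = 4), 10.40 ± 0.06 in Oct4med BCCs (n = 2) and 11.16 ± 0.05 in Oct4low BCCs (n = 4). ADM was 2.17-fold higher in Oct4hi than in Oct4med BCCs (log2 change 1.12, 95% interval 0.95 to 1.29, adjusted p = 1.88e-06). Against Oct4low BCCs, it was 1.29-fold higher in Oct4hi BCCs (log2 change 0.36, SE 0.06, adjusted p = 0.00135). In Oct4med BCCs it fell by 0.76 on the log2 scale against Oct4low BCCs, a 1.69-fold difference (95% interval -0.93 to -0.58, adjusted p = 6.04e-05). The order of the subsets by ADM did not follow the order of the GFP gates.

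A control of the manufacturer for 28S ribosomal RNA was also lowest in Oct4med BCCs, with 13.57 ± 0.03 in Oct4hi BCCs (SD, n = 4), 12.70 ± 0.09 in Oct4med BCCs (n = 2) and 13.60 ± 0.07 in Oct4low BCCs (n = 4). Another probe set of it stood at 11.87 in Oct4hi, 11.50 in Oct4med and 11.98 in Oct4low BCCs, and a dim one at 5.21, 5.27 and 5.30 in the same subsets. Its part in the ADM values of Oct4med BCCs was not tested.

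ANGPTL4 was highest in Oct4low BCCs, and Oct4hi and Oct4med BCCs were both lower. Its brighter probe set had a log2 intensity of 6.40, 6.43, 6.66 and 6.64 in Oct4hi BCCs, 6.67 and 6.54 in Oct4med BCCs, and 6.90, 7.14, 7.12 and 7.12 in Oct4low BCCs. Every Oct4low array was above every array of the other subsets, while Oct4hi and Oct4med arrays overlapped. The level in Oct4hi BCCs was 6.53 ± 0.14 (SD, n = 4), against 7.07 ± 0.11 in Oct4low BCCs (n = 4), a 1.45-fold fall (log2 change -0.54, SE 0.09, adjusted p = 0.000809). In Oct4med BCCs (6.60 ± 0.09, n = 2) it was 1.38-fold lower than in Oct4low BCCs (log2 change -0.47, adjusted p = 0.0104). This call was lost without Oct4med replicate 2 (log2 change -0.40, adjusted p = 0.0726), leaving 1 Oct4med array. Oct4hi and Oct4med BCCs differed by -0.07 on the log2 scale, with a 95% interval of -0.31 to 0.16 (adjusted p = 0.638).

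The dimmer probe set of ANGPTL4 had a log2 intensity of 5.62, 5.42, 5.81 and 5.69 in Oct4hi BCCs, 5.56 and 5.73 in Oct4med BCCs, and 5.86, 5.81, 5.77 and 6.08 in Oct4low BCCs. Here 1 Oct4hi array lay within the range of the Oct4low arrays. The change in Oct4hi against Oct4low BCCs was -0.25 (SE 0.10, adjusted p = 0.0696) and that in Oct4med against Oct4low BCCs -0.24 (adjusted p = 0.186). Neither passed the threshold, so that the calls for ANGPTL4 rest on its brighter probe set.

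PFKFB3 was likewise highest in Oct4low BCCs. The log2 intensity was 7.95, 7.91, 7.91 and 8.0 in Oct4hi BCCs, 7.87 and 8.08 in Oct4med BCCs, and 8.41, 8.54, 8.74 and 8.46 in Oct4low BCCs. The Oct4low arrays were all above the other 6 arrays, and the values of both Oct4med arrays enclosed those of Oct4hi BCCs. Oct4hi BCCs averaged 7.94 ± 0.04 (SD, n = 4), against 8.54 ± 0.15 in Oct4low BCCs (n = 4), 1.51-fold lower (log2 change -0.60, SE 0.09, adjusted p = 0.000328). Oct4med BCCs averaged 7.97 ± 0.15 (n = 2), 1.48-fold lower than Oct4low BCCs (log2 change -0.57, adjusted p = 0.00262). Between Oct4hi and Oct4med BCCs the change was -0.03, with a 95% interval of -0.26 to 0.20 (adjusted p = 0.854).

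ALDOC was lowest in Oct4hi BCCs, and Oct4med and Oct4low BCCs were at one level within their spread. The log2 intensity was 7.61, 7.78, 7.77 and 7.64 in Oct4hi BCCs, 8.12 and 7.98 in Oct4med BCCs, and 8.10, 8.02, 8.10 and 8.06 in Oct4low BCCs. All 4 Oct4hi arrays were below the other 6. The means were 7.70 ± 0.09 in Oct4hi BCCs (SD, n = 4), 8.05 ± 0.10 in Oct4med BCCs (n = 2) and 8.07 ± 0.04 in Oct4low BCCs (n = 4). ALDOC was 1.29-fold lower in Oct4hi than in Oct4low BCCs (log2 change -0.37, SE 0.07, adjusted p = 0.00216). It was 1.28-fold lower in Oct4hi than in Oct4med BCCs (log2 change -0.35, 95% interval -0.54 to -0.16, adjusted p = 0.0126). This last call was lost without Oct4med replicate 1 (log2 change -0.28, adjusted p = 0.131). Oct4med and Oct4low BCCs differed by -0.02, with a 95% interval of -0.21 to 0.17 (adjusted p = 0.902), and this difference changed sign when the values were quantile normalized again (0.08).

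BNIP3 followed the same order as ALDOC. The log2 intensity was 12.08, 12.12, 12.04 and 12.03 in Oct4hi BCCs, 12.43 and 12.44 in Oct4med BCCs, and 12.50, 12.48, 12.49 and 12.39 in Oct4low BCCs. The highest Oct4hi array was below every other array, and both Oct4med arrays lay within the range of the Oct4low arrays. With a mean of 12.07 ± 0.04 in Oct4hi BCCs (SD, n = 4), against 12.46 ± 0.05 in Oct4low BCCs (n = 4), BNIP3 was 1.31-fold lower (log2 change -0.39, SE 0.06, adjusted p = 0.000781). Against Oct4med BCCs, with a mean of 12.43 (n = 2), the fall in Oct4hi BCCs was 1.28-fold (log2 change -0.36, adjusted p = 0.00589). The change in Oct4med against Oct4low BCCs was -0.03, with a 95% interval of -0.20 to 0.14 (adjusted p = 0.812), and it also changed sign when the values were quantile normalized again (0.10).

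**Figure D2:**
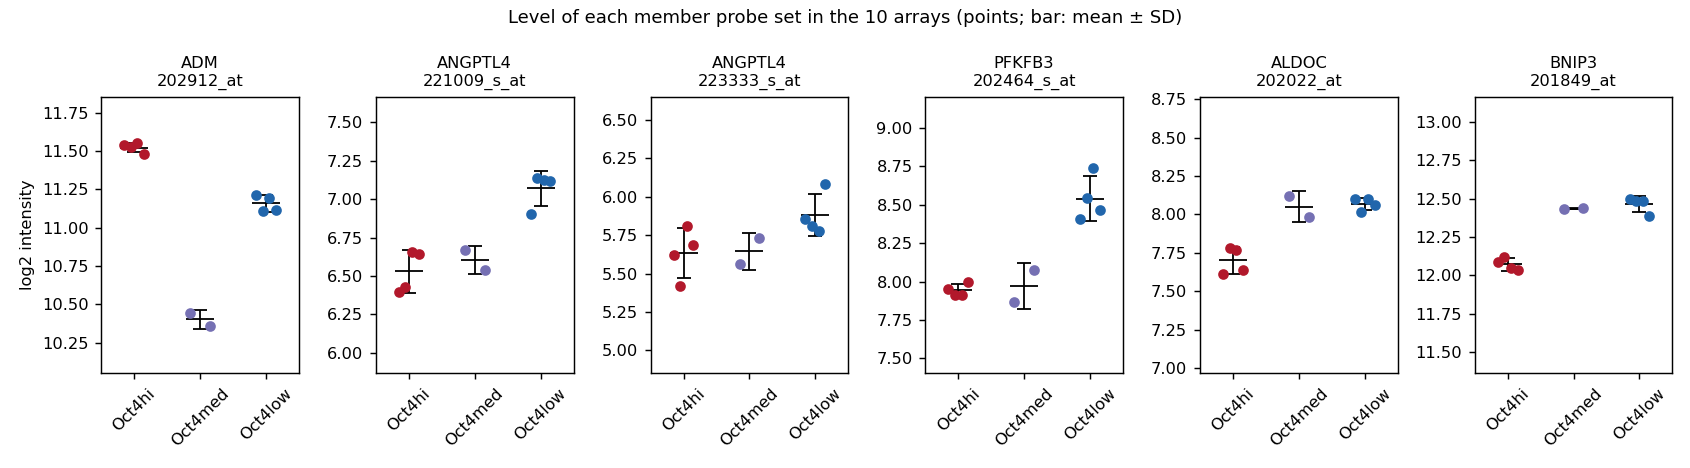
Log2 intensity (y axis, the same span of 1.8 in each panel) of the 6 probe sets of ADM, ANGPTL4, PFKFB3, ALDOC and BNIP3 in Oct4hi, Oct4med and Oct4low BCCs (x axis), with a point for each array and a bar at the mean ± SD. ADM is lowest in Oct4med BCCs (10.45 and 10.36), ANGPTL4 and PFKFB3 are highest in Oct4low BCCs, and ALDOC and BNIP3 are lowest in Oct4hi BCCs.

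Of the 5 genes, 1 rose (ADM) and 4 fell in Oct4hi against Oct4low BCCs, where 20.4% of all tested genes rose and 14.8% fell. In Oct4med against Oct4low BCCs none rose, against 5.68% of all tested genes, and 3 fell (ADM, ANGPTL4 and PFKFB3), against 11.7%. In Oct4hi against Oct4med BCCs, 1 rose (ADM), against 18.2% of all tested genes, and 2 fell (ALDOC and BNIP3), against 9.63%. The genes thus fell into 3 patterns. ADM separated all 3 subsets, ANGPTL4 and PFKFB3 separated Oct4low BCCs from the rest, and ALDOC and BNIP3 separated Oct4hi BCCs from the rest. The comparisons share arrays, so that the changes of one are not independent of those of another. Because the 5 genes were chosen with earlier results of these data known, the shares beside them describe the background and are not a test.

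**Figure D3:**
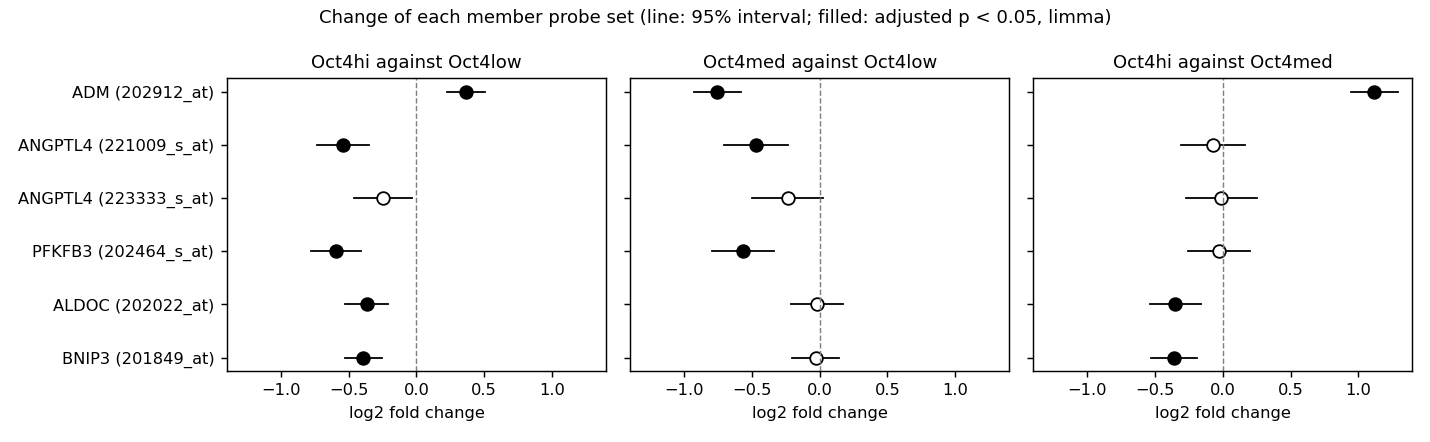
Log2 fold change (x axis) of each of the 6 probe sets (y axis) in Oct4hi against Oct4low, Oct4med against Oct4low and Oct4hi against Oct4med BCCs, with 95% intervals as lines and filled points where limma's adjusted p was below 0.05. ADM is at 0.36, -0.76 and 1.12 in these comparisons, and no other gene has a positive change past the threshold.

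The 5 genes were set among the wider pathway, with 89 genes in 6 lists, of which 56 had a probe set with a single symbol and 54 were tested, each by its brightest probe set. In Oct4hi against Oct4low BCCs, 10 of the 54 rose, 28 fell and 16 did not pass the threshold, where 20.4% of all tested genes rose and 14.8% fell. The median log2 change of the 54 was -0.25, against 0.02 over all tested genes. Without the 5 genes, 9 of 49 rose and 24 fell, with a median of -0.19. In Oct4med against Oct4low BCCs, 2 of the 54 rose and 15 fell, where 5.68% of all tested genes rose and 11.7% fell. The median was -0.12, against 0.03 over all tested genes. In Oct4hi against Oct4med BCCs, 12 rose and 14 fell, where 18.2% of all tested genes rose and 9.63% fell. The median was -0.12, against -0.01 over all tested genes. How many rose or fell against Oct4med BCCs depended on the scaling. After a further quantile normalization, 4 rose and 11 fell in Oct4med against Oct4low BCCs and 8 rose and 22 fell in Oct4hi against Oct4med BCCs. With the arrays shifted to a common median, 13 rose and 8 fell in Oct4hi against Oct4med BCCs. The deposited table holds only features that passed the filter of the authors, so that these counts are not shares of whole pathways. The lists were also chosen with earlier results of these data known, so that the counts are not a test against all tested genes.

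Among the oxygen sensors, 5 of 10 genes were tested. EPAS1, a HIF alpha subunit, was high in Oct4hi BCCs, at 11.70 ± 0.02 (SD, n = 4), with 11.21 ± 0.02 in Oct4med BCCs (n = 2) and 11.34 ± 0.07 in Oct4low BCCs (n = 4). It rose by 0.35 on the log2 scale in Oct4hi against Oct4low BCCs (adjusted p = 0.00169) and by 0.49 against Oct4med BCCs (adjusted p = 0.00116), the second of these 0.32 with the values quantile normalized again (adjusted p = 0.0121). ARNT, its partner, fell by 0.32 in Oct4hi against Oct4low BCCs (adjusted p = 0.0099), with 7.21 ± 0.05 in Oct4hi and 7.52 ± 0.15 in Oct4low BCCs (SD, n = 4 each). A dimmer ARNT probe set did not follow it (log2 change 0.14, adjusted p = 0.42), and the call was lost with the mean over the probe sets of the gene (-0.089, adjusted p = 0.383). EGLN3, a prolyl hydroxylase that is itself a HIF target, was near the array medians, at 5.64 in Oct4hi, 5.56 in Oct4med and 5.91 in Oct4low BCCs, and its falls of 0.28 and 0.36 in Oct4hi and Oct4med against Oct4low BCCs were lost without any 1 of 5 and of 8 arrays (adjusted p up to 0.0983 and 0.244). HIF3A, an alpha subunit of which some forms restrain the others, stood at 5.54 in Oct4hi, 5.86 in Oct4med and 5.51 in Oct4low BCCs, and both its calls (0.35 in Oct4med against Oct4low and -0.32 in Oct4hi against Oct4med BCCs) were lost without 1 of 3 arrays (adjusted p up to 0.235 and 0.322).

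Glucose uptake and glycolysis had 11 tested genes, of which 1 rose and 6 fell in Oct4hi against Oct4low BCCs, PFKFB3 and ALDOC included, against 20.4% and 14.8% of all tested genes. SLC2A3, a high-affinity glucose transporter, was the one that rose. By its brighter probe set, the log2 intensity was 9.37, 9.47, 9.40 and 9.36 in Oct4hi BCCs, 8.56 and 8.72 in Oct4med BCCs, and 8.93, 9.11, 9.25 and 9.02 in Oct4low BCCs. No subset overlapped with another there, and their order was that of ADM. The changes were 0.32 in Oct4hi against Oct4low BCCs (adjusted p = 0.0102), -0.44 in Oct4med against Oct4low BCCs (adjusted p = 0.00991) and 0.75 in Oct4hi against Oct4med BCCs (adjusted p = 0.000278). The dimmer probe set was also called higher in Oct4hi BCCs (0.32 against Oct4low and 0.45 against Oct4med BCCs, adjusted p = 0.0136 and 0.00986). Its Oct4med and Oct4low arrays overlapped, and it did not pass the threshold between them (-0.13, adjusted p = 0.41). The call between Oct4med and Oct4low BCCs was lost without Oct4med replicate 1 (log2 change -0.36, adjusted p = 0.0962), and the change was -0.28 with the mean over both probe sets (adjusted p = 0.0367). PFKP, the platelet type of phosphofructokinase, was 10.45 ± 0.01 in Oct4hi, 10.77 ± 0.04 in Oct4med and 10.83 ± 0.07 in Oct4low BCCs (log2 change -0.38 in Oct4hi against Oct4low BCCs, adjusted p = 0.000937). Its fall of 0.32 against Oct4med BCCs (adjusted p = 0.0113) was lost without Oct4med replicate 1 (adjusted p = 0.0875), and the log2 change was -0.49 with the values quantile normalized again (adjusted p = 0.00185).

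The PFKFB family makes and breaks down the activator of phosphofructokinase. PFKFB4, a paralog of PFKFB3, had a log2 intensity of 7.64, 7.66, 7.64 and 7.68 in Oct4hi BCCs, 7.84 and 7.94 in Oct4med BCCs, and 8.08, 8.06, 8.09 and 8.21 in Oct4low BCCs. It fell by 0.46 in Oct4hi against Oct4low BCCs (adjusted p = 0.000352). Unlike PFKFB3, its Oct4med arrays lay above all Oct4hi arrays (log2 change -0.24 in Oct4hi against Oct4med BCCs, adjusted p = 0.0485), a call that was lost without any 1 of 9 arrays (adjusted p up to 0.18). PFKFB2 did not pass the threshold in any comparison, with 6.54 ± 0.07 in Oct4hi, 6.31 ± 0.34 in Oct4med and 6.42 ± 0.15 in Oct4low BCCs. ENO2, an enolase, and PKM, the last kinase of glycolysis, fell by 0.21 (adjusted p = 0.0372) and 0.43 (adjusted p = 0.015) in Oct4hi against Oct4low BCCs. The call of ENO2 was lost without any 1 of 5 arrays (adjusted p up to 0.111), and that of PKM with the methods' t-test (adjusted p = 0.0708), where the arrays of Oct4hi and Oct4low BCCs overlapped.

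Pyruvate enters the mitochondria through MPC1 and is oxidised by pyruvate dehydrogenase, with PDHA1 as its catalytic subunit, which the PDK kinases switch off. Of the 8 tested genes of pyruvate, lactate and pH, 3 rose and 3 fell in Oct4hi against Oct4low BCCs, against 20.4% and 14.8% of all tested genes. PDK4 had the largest change of the named genes of the lists. Its log2 intensity was 5.81, 5.63, 5.34 and 5.49 in Oct4hi BCCs, 5.69 and 5.65 in Oct4med BCCs, and 6.72, 6.95, 7.01 and 6.46 in Oct4low BCCs. Oct4low BCCs thus stood apart, with log2 changes of -1.22 in Oct4hi (adjusted p = 3.1e-05) and -1.12 in Oct4med BCCs (adjusted p = 0.000401), while Oct4hi and Oct4med BCCs overlapped (log2 change -0.11, adjusted p = 0.634), the order of ANGPTL4 and PFKFB3. PDK1 fell by 0.44 in Oct4hi against Oct4low BCCs (adjusted p = 0.00158), with 8.55 ± 0.07 and 8.99 ± 0.13 (SD, n = 4 each). PDK3, named after its values were seen, went against both by its brightest probe set (log2 change 0.32 in Oct4hi against Oct4low BCCs, adjusted p = 0.00266, and 0.38 in Oct4hi against Oct4med BCCs, adjusted p = 0.00466), while a dimmer one fell by 0.32 in Oct4hi against Oct4low BCCs (adjusted p = 0.00945). Another dimmer PDK3 probe set rose in both comparisons (0.32, adjusted p = 0.00747, and 0.28, adjusted p = 0.0456). PDHA1 rose by 0.41 (adjusted p = 0.000487) and MPC1 by 0.39 (adjusted p = 0.0023) in Oct4hi against Oct4low BCCs, and by 0.38 (adjusted p = 0.00387) and 0.48 (adjusted p = 0.00344) against Oct4med BCCs. Both calls against Oct4med BCCs could be lost, that of MPC1 without Oct4med replicate 1 (log2 change 0.34, adjusted p = 0.0625) and that of PDHA1 with the values quantile normalized again (log2 change 0.22, adjusted p = 0.0802).

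The secreted targets, with 10 tested genes that include ADM and ANGPTL4, had 2 that rose and 5 that fell in Oct4hi against Oct4low BCCs (20.4% and 14.8% of all tested genes), and 7 that fell in Oct4med against Oct4low BCCs (11.7%). EDN1, the precursor of a peptide that narrows vessels, was the other one that rose. It stood at 10.60 ± 0.04 in Oct4hi BCCs (SD, n = 4), 10.10 ± 0.03 in Oct4med BCCs (n = 2) and 10.13 ± 0.04 in Oct4low BCCs (n = 4), higher in Oct4hi than in Oct4med BCCs by 0.50 (adjusted p = 0.000825) and than in Oct4low BCCs by 0.46 (adjusted p = 0.000222). Unlike ADM, EDN1 did not separate Oct4med from Oct4low BCCs (log2 change -0.03, adjusted p = 0.806), a difference that changed sign with the values quantile normalized again (0.02). IGFBP3, which binds insulin-like growth factors, was lowest in Oct4med BCCs as ADM was, with 7.48 ± 0.09 in Oct4hi, 6.93 ± 0.07 in Oct4med and 7.55 ± 0.04 in Oct4low BCCs. It differed by -0.62 in Oct4med against Oct4low BCCs (adjusted p = 0.000389) and by 0.55 in Oct4hi against Oct4med BCCs (adjusted p = 0.000796).

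STC1, a secreted glycoprotein that acts on calcium and phosphate transport, was lowest in Oct4hi and highest in Oct4low BCCs, with 7.20 ± 0.08 in Oct4hi, 7.64 ± 0.02 in Oct4med and 7.97 ± 0.06 in Oct4low BCCs. It fell by 0.77 in Oct4hi against Oct4low BCCs (adjusted p = 9.83e-06), by 0.44 in Oct4hi against Oct4med BCCs (adjusted p = 0.00323) and by 0.33 in Oct4med against Oct4low BCCs (adjusted p = 0.017). The last call was lost without Oct4med replicate 1 or 2 (adjusted p = 0.0697 and 0.0699). LOX, which crosslinks collagen, fell by 0.49 in Oct4hi against Oct4low BCCs (adjusted p = 0.0003) and by 0.34 in Oct4med against Oct4low BCCs (adjusted p = 0.0143), the second of these lost without Oct4med replicate 1 (adjusted p = 0.125).

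The receptors of adrenomedullin and the genes of lipoprotein lipase and its anchor gave few values. Of the adrenomedullin receptor genes with a probe set, RAMP2, a partner of the receptor, was tested and did not pass the threshold (log2 change -0.08 in Oct4hi against Oct4low BCCs, adjusted p = 0.64). The probe sets of CALCRL, the receptor, and ACKR3, which takes up adrenomedullin, were below the filter. LPL, the lipase that ANGPTL4 inhibits, was also below it, and GPIHBP1, which anchors the lipase on capillaries, did not pass the threshold (log2 change -0.04, adjusted p = 0.81).

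Mitophagy and cell death had 5 tested genes. BNIP3 was the only one that fell in Oct4hi against Oct4low BCCs, where 14.8% of all tested genes fell. BNIP1 and BNIP2, which share the name for binding an adenovirus protein, did not follow it. BNIP1 was 8.22 ± 0.02 in Oct4hi, 7.92 ± 0.05 in Oct4med and 8.27 ± 0.06 in Oct4low BCCs, and BNIP2 was 9.99 ± 0.11, 9.61 ± 0.11 and 9.80 ± 0.09 in the same subsets. Between Oct4hi and Oct4low BCCs neither passed the threshold (adjusted p = 0.592 for BNIP1 and 0.0852 for BNIP2), and against Oct4med BCCs both were higher in Oct4hi BCCs (0.30 and 0.38, adjusted p = 0.0168 and 0.0152), calls that were lost without Oct4med replicate 1 (adjusted p = 0.127 and 0.153) and with the values quantile normalized again (0.17 and 0.22, adjusted p = 0.149 and 0.0893). BNIP1 also fell by 0.35 in Oct4med against Oct4low BCCs (adjusted p = 0.00928), and this was lost without the same array (adjusted p = 0.0705). FUNDC1, another mitophagy receptor of the outer membrane, moved against BNIP3. Its log2 intensity was 8.93, 9.03, 8.89 and 8.91 in Oct4hi BCCs, 7.96 and 8.27 in Oct4med BCCs, and 8.50, 8.55, 8.78 and 8.48 in Oct4low BCCs. The changes were 0.36 in Oct4hi against Oct4low (adjusted p = 0.00932), -0.46 in Oct4med against Oct4low (adjusted p = 0.0122, and 0.148 without Oct4med replicate 1) and 0.82 in Oct4hi against Oct4med BCCs (adjusted p = 0.000312).

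The intracellular targets had 15 tested genes, of which 2 rose and 11 fell in Oct4hi against Oct4low BCCs, with a median log2 change of -0.34, where 20.4% of all tested genes rose and 14.8% fell, with a median of 0.02. BHLHE41 and BHLHE40, transcriptional repressors of the clock, fell by 0.79 (adjusted p = 2.64e-05) and 0.34 (adjusted p = 0.00194) in Oct4hi and by 0.58 (adjusted p = 0.00152) and 0.56 (adjusted p = 0.000456) in Oct4med against Oct4low BCCs. MXI1, a MYC antagonist, was 10.39 ± 0.02 in Oct4hi BCCs (SD, n = 4), 10.85 ± 0.01 in Oct4med BCCs (n = 2) and 10.89 ± 0.04 in Oct4low BCCs (n = 4), in the order of BNIP3 and ALDOC, with log2 changes of -0.50 in Oct4hi against Oct4low (adjusted p = 0.000115) and -0.46 in Oct4hi against Oct4med BCCs (adjusted p = 0.00128). MIR210HG, the host transcript of a hypoxia-induced microRNA, fell by 0.50 in Oct4hi against Oct4low BCCs (adjusted p = 0.00212). Its fall of 0.35 against Oct4med BCCs (adjusted p = 0.0448) was lost without any 1 of 7 arrays (adjusted p up to 0.144).

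**Figure D4:**
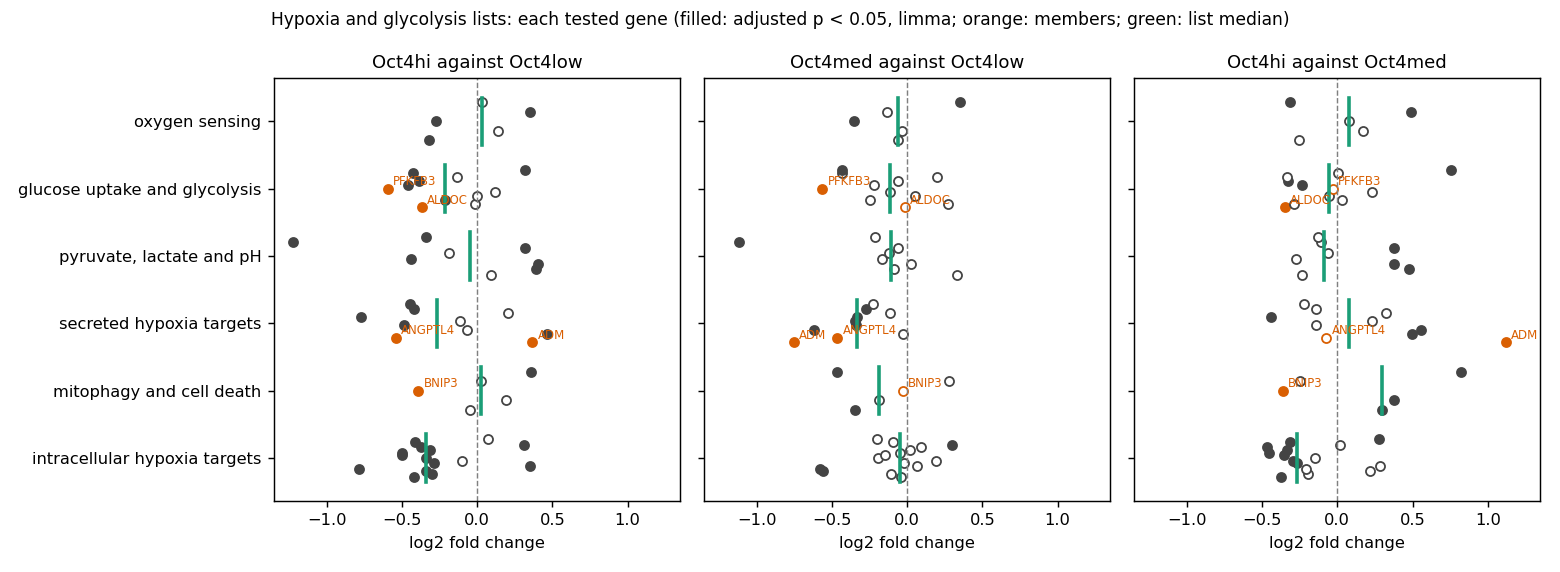
Log2 fold change (x axis) of each tested gene of the 6 lists (y axis) in Oct4hi against Oct4low, Oct4med against Oct4low and Oct4hi against Oct4med BCCs, filled where limma's adjusted p was below 0.05, with ADM, ANGPTL4, PFKFB3, ALDOC and BNIP3 in orange and the median of each list as a green line. In Oct4hi against Oct4low BCCs, 28 of the 54 genes fell and 10 rose, where 14.8% and 20.4% of all tested genes did. ADM lies to the right of the median of its list in this comparison.

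**Figure D5:**
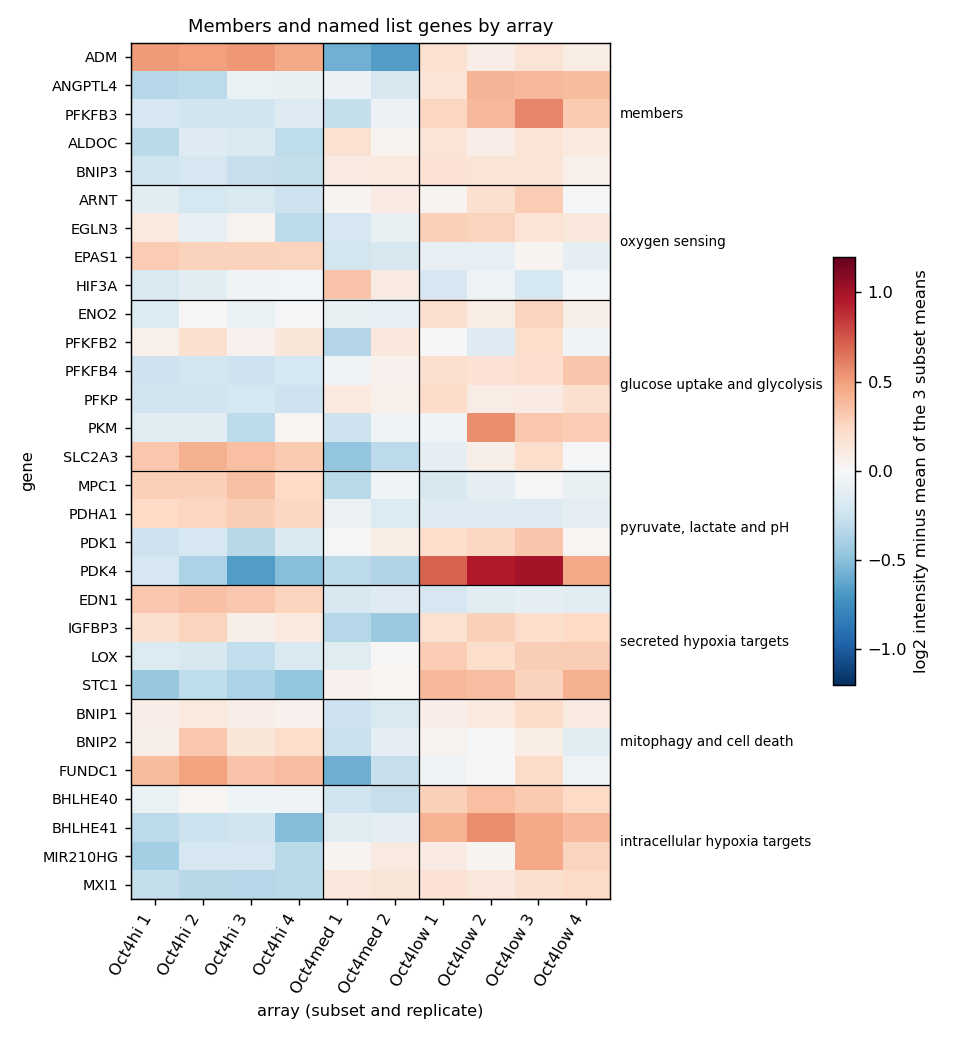
Log2 intensity minus the mean of the 3 subset means (colour, from -1.2 to 1.2) of the 5 genes and the named genes of the lists (rows) in each of the 10 arrays (columns, Oct4hi, Oct4med and Oct4low BCCs). ADM, SLC2A3 and FUNDC1 are above their mean in Oct4hi and below it in Oct4med BCCs, PDK4 is above it in the 4 Oct4low arrays, and BNIP3 and MXI1 are below it in the 4 Oct4hi arrays.

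For each of the 5 genes, the pair of genes with the most similar profile over the 10 arrays was taken from the 7638 other tested genes by Pearson's r. ADM was most like ZSCAN18 (r = 0.995), a zinc finger gene, with 7.48 in Oct4hi, 6.36 in Oct4med and 7.06 in Oct4low BCCs, and NBDY (r = 0.990). ANGPTL4 was most like FHOD1 (r = 0.981), a formin that acts on actin, and NOX5 (r = 0.967), an NADPH oxidase. PFKFB3 was most like COL13A1 (r = 0.987), a transmembrane collagen, and METRNL (r = 0.985), a secreted protein. ALDOC was most like PUM2 (r = 0.986), an RNA-binding repressor of translation, and CTDSPL (r = 0.980), a phosphatase. BNIP3 was most like AK4 (r = 0.989), a mitochondrial adenylate kinase that was also in the lists, and SUB1 (r = 0.986), a transcription cofactor. AK4 was 10.36 ± 0.06 in Oct4hi BCCs (SD, n = 4), 10.74 ± 0.03 in Oct4med BCCs (n = 2) and 10.78 ± 0.04 in Oct4low BCCs (n = 4) by its brightest probe set. With the mean over its probe sets, its fall in Oct4hi against Oct4low BCCs (-0.42, adjusted p = 0.000542) was not past the threshold (-0.19, adjusted p = 0.0791). These r values are descriptions over arrays that share their subset.

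The labelled cell type was checked against markers. CAV1 and CD44, which basal-like lines express, were bright, with 12.04 and 10.87 in Oct4hi, 12.26 and 11.12 in Oct4med, and 12.40 and 11.22 in Oct4low BCCs. Both fell in Oct4hi against Oct4low BCCs (CAV1 -0.35, adjusted p = 0.00142, and CD44 -0.35, adjusted p = 0.00178). Dimmer CD44 probe sets did not all keep this order. A probe set among them stood at 8.19 in Oct4hi, 7.13 in Oct4med and 9.02 in Oct4low BCCs. KRT5 was close to the array medians (5.33 in Oct4hi, 5.43 in Oct4med and 5.43 in Oct4low BCCs), and the VIM probe set in the table was below the filter. EGFR stood at 5.89 in Oct4hi, 6.15 in Oct4med and 5.79 in Oct4low BCCs, higher in Oct4med against Oct4low BCCs (0.36, adjusted p = 0.0207). Of the leukocyte markers, PTPRC, SPI1 and LYZ were below the filter, and CD14, CD3E and ITGAM were tested. None passed the threshold in Oct4hi against Oct4low BCCs. CD14, near the array medians (5.21 in Oct4hi, 5.01 in Oct4med and 5.51 in Oct4low BCCs), was lower in Oct4med against Oct4low BCCs (-0.50, adjusted p = 0.034). A dimmer ITGAM probe set went the other way there (0.49, adjusted p = 0.00585), and fell in Oct4hi against Oct4med BCCs (-0.44, adjusted p = 0.00891). Of the stromal markers, COL1A2 and LUM were below the filter and 5 were tested. COL1A1 stood at 8.29 in Oct4hi, 7.98 in Oct4med and 8.39 in Oct4low BCCs, PECAM1 at 7.47, 8.12 and 7.93 and PDGFRB at 7.24, 7.22 and 7.03 in the same subsets, above the array medians. PECAM1 fell in Oct4hi against Oct4low (-0.47, adjusted p = 0.000338) and against Oct4med BCCs (-0.66, adjusted p = 0.000186), and COL1A1 fell in Oct4med against Oct4low BCCs (-0.42, adjusted p = 0.023). A dimmer COL1A1 probe set, at 7.84 in Oct4hi, 8.04 in Oct4med and 7.84 in Oct4low BCCs, did not follow that fall (0.21, adjusted p = 0.156). Luminal markers also moved with the subsets. Of the 5 tested, GATA3, MLPH and TFF1 fell in Oct4hi against Oct4low BCCs, where 14.8% of all tested genes fell. GATA3, TFF1 and XBP1 fell in Oct4med against Oct4low BCCs, against 11.7% of all tested genes. In Oct4hi against Oct4med BCCs, TFF1 and XBP1 rose and ESR1, GATA3 and MLPH fell, against 18.2% and 9.63% of all tested genes. The summed log2 intensity was 37.3 to 37.9 in Oct4hi, 37.7 to 38.3 in Oct4med and 39.8 to 40.3 in Oct4low BCCs, while CDH1, the epithelial cadherin, was below the filter. The summed level of the luminal markers was thus highest in Oct4low BCCs, as were ANGPTL4 and PFKFB3, and its part in their values was not tested.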

How the data were processed

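Total RNA (100 ng for each array) of sorted MDA-MB-231 cells was hybridized to 10 Affymetrix U133 Plus 2.0 arrays, 4 of Oct4hi, 2 of Oct4med and 4 of Oct4low BCCs. The authors took background-corrected intensities into BRB-Array Tools, transformed them to log2, normalized them by RMA and filtered features near background or with little change, and the deposited values are log2 intensities of 25750 probe sets. Of these, 23 are controls, 18683 have 1 gene symbol in the platform annotation, 799 several and 6268 none here. POU5F1 is not analysed here. Depth does not apply, and the number of arrays limits the precision.

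Tests with limma 3.58.1 in R 4.3.3 (3 subset means, 10 arrays, no covariate) covered the 13872 probe sets that reached the median of the array in 2 or more arrays, and each gene was represented by its brightest probe set. The methods' t-test was run as an alternative, without their random variance model. The test was checked on simulated data. Named genes were the 5 genes with every probe set, other genes of their families and receptors, up to 4 genes of each list with the largest change past the threshold, and the 2 genes most like each of the 5. The genes and lists were chosen with earlier results of these data known. Other genes of the lists can have dimmer probe sets that differ. Alternatives were the filter, the scaling, array weights, a fit of just the compared subsets, a trended robust prior, the replicate block, probe sets without _x_at and _s_at, the mean over probe sets, and leaving out each array. Promoters came from RefSeq (GRCh38.p14), with an entry for all 5 genes.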

Additional observations from a re-analysis of the deposited data

Results flagged for a closer look

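In 8 of 82 groups of 4 arrays, taken from 41 probe sets of the named genes, 1 array stood apart from the other 3 by Dixon's test at the 95% level, and chance flags about 1 in 20 groups. All 8 were in Oct4low BCCs. ANGPTL4 was 6.90 in replicate 1, against 7.12 to 7.14 in the other 3, and EDN1 was 10.07 there, against 10.15 to 10.16. LOX was 8.90 in replicate 2, against 8.99 in the other 3. EPAS1 was 11.45 in replicate 3, against 11.30 to 11.32, NOX5 was 7.63, against 7.49 to 7.51, and COL13A1 was 11.74, against 11.50 to 11.54. BNIP3 was 12.39 in replicate 4, against 12.48 to 12.50, and SUB1 was 8.70, against 8.73 to 8.74. The values are log2 intensities, and the calls of ANGPTL4 and BNIP3 in Oct4hi against Oct4low BCCs held without each of these arrays.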

How the results depend on the processing

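The number of arrays, above all the 2 of Oct4med BCCs, limits these results. For Oct4hi against Oct4low BCCs, the changes of all 5 genes (brightest probe sets) kept direction and call in every alternative run that tested them. ANGPTL4 and PFKFB3 have no value in the run without _x_at and _s_at probe sets, since theirs are of that type. ADM kept all 3 calls (0.97 to 1.16 in Oct4hi against Oct4med BCCs). Of 309 values of the 5 genes under alternatives, 297 kept direction and side of the threshold. The calls lost were ALDOC in Oct4hi against Oct4med BCCs (adjusted p = 0.068 with the methods' t-test, change -0.35; leaving out arrays gave -0.42 to -0.28), ANGPTL4 in Oct4med against Oct4low BCCs (0.0687 with the t-test, change -0.47; arrays left out, -0.53 to -0.40) and PFKFB3 in Oct4med against Oct4low BCCs (0.0859 with the t-test, change -0.57). The cause was not tested. Among the named list genes, the t-test also ended the calls of PDK4 (adjusted p = 0.0502), FUNDC1 (0.139), LOX (0.0508), SLC2A3 (0.113), EGLN3 (0.0618) and HIF3A (0.125) in Oct4med against Oct4low BCCs. In Oct4hi against Oct4med BCCs it ended those of BNIP2 (0.0822), HIF3A (0.11) and MIR210HG (0.067). In Oct4hi against Oct4low BCCs it ended those of EGLN3 (0.0932) and PKM (0.0708).

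Same-numbered arrays correlated at -0.26 to 0.28 in their deviations and did not all agree best with their own number (2 of 8 did). With so few arrays, this cannot tell whether the numbers pair the arrays, and the main fit treats them as unpaired. With the replicate block, ALDOC in Oct4hi against Oct4med BCCs (-0.36, adjusted p = 0.0501) and ANGPTL4 in Oct4med against Oct4low BCCs (-0.38, adjusted p = 0.0602) lost their calls, PKM in Oct4hi against Oct4med BCCs was -0.0098, and no other call of the 5 genes changed. Among the named list genes it ended calls of BNIP1, ENO2, HIF3A, LOX, PFKFB4, PFKP and STC1 (adjusted p = 0.0511 to 0.095). List genes higher were 0 and lower 9 in Oct4med against Oct4low BCCs, and 7 were lower in Oct4hi against Oct4med BCCs. It called 177 probe sets higher and 1376 lower in Oct4med against Oct4low, and 1640 higher and 591 lower in Oct4hi against Oct4med BCCs.

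Differences that had not passed the threshold changed sign. Quantile normalized again, those in Oct4med against Oct4low BCCs became 0.078 for ALDOC, 0.096 for BNIP3, 0.036 for AK4, 0.028 for ARNT, 0.017 for EDN1, 0.042 for MXI1 and 0.011 for PFKP, and those in Oct4hi against Oct4med BCCs -0.13 for ENO2, -0.037 for PKM and 0.0031 for the dimmer ANGPTL4 probe set. With a common median, Oct4hi against Oct4med BCCs gave 0.0078 for PFKFB3 and 0.026 for the dimmer ANGPTL4 probe set. The mean over probe sets gave 0.080 for AK4 and 0.12 for ARNT in Oct4med against Oct4low and -0.0097 for PFKFB2 in Oct4hi against Oct4low BCCs. Leaving out arrays gave, in Oct4med against Oct4low BCCs, -0.088 to 0.052 for ALDOC, -0.22 to 0.047 for MPC1, -0.015 to 0.070 for PDHA1 and -0.36 to 0.13 for PFKFB2. In Oct4hi against Oct4med BCCs it gave -0.13 to 0.076 for PFKFB3, -0.013 to 0.47 for PFKFB2, -0.10 to 0.11 for PKM and -0.096 to 0.074 for the dimmer ANGPTL4 probe set.

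Counts moved more. Of list genes in Oct4med against Oct4low BCCs (2 higher, 15 lower), 0 were higher with array weights, the t-test, no filter, only the subsets compared or no _x_at and _s_at probe sets, 1 with a common median and 4 quantile normalized again, and 6 were lower with the t-test and 4 without _x_at and _s_at probe sets. In Oct4hi against Oct4med BCCs (12 higher, 14 lower), 8 were lower with a common median or no filter and 22 quantile normalized again, and 5 were higher without _x_at and _s_at probe sets, as were 6 in Oct4hi against Oct4low BCCs (10 higher). Leaving out arrays gave 0 to 2 higher and 7 to 15 lower in Oct4med against Oct4low and 7 to 14 higher and 6 to 15 lower in Oct4hi against Oct4med BCCs.

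In Oct4med against Oct4low BCCs, 720 tested probe sets rose and 2145 fell. Higher were 273 with array weights, 163 with the t-test (948 lower), 463 with no filter, 435 with only the subsets compared, 1385 quantile normalized again (1809 lower), 388 without _x_at and _s_at probe sets, and 371 to 711 with arrays left out (1024 to 2144 lower). In Oct4hi against Oct4med BCCs (2518 higher, 1195 lower), 1269 were higher and 597 lower with the t-test, 1619 higher without _x_at and _s_at probe sets, 755 lower with array weights, 2642 higher and 772 lower with a common median, 1718 higher and 1620 lower quantile normalized again, and 961 to 2672 higher and 464 to 1242 lower with arrays left out. In Oct4hi against Oct4low BCCs (2521 higher), 1357 were higher without _x_at and _s_at probe sets. That run tested fewer probe sets, so that its lower counts need not be calls lost.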
